A study of Homo sapiens with 9 samples.

Results

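The genes of the hexosamine pathway and of O-GlcNAc cycling were followed in pancreatic cancer cells after knockdown of STOML2, which encodes stomatin-like protein 2 (SLP-2) of the mitochondrial inner membrane. Members were the 10 genes GFPT1, GFPT2, GNPNAT1, PGM3, UAP1, NAGK, GNPDA1, GNPDA2, OGT and OGA. Their rows were matched by the gene symbol of the array annotation and by no measured value, but the genes were chosen with earlier results of these data known. Of the 10, 8 had 1 row each among the 21448 rows of the table, 17709 of which carried a gene symbol. GFPT2 and PGM3 had no row under their symbol, and 0 rows listed several symbols, so neither gene was analysed here, and the 3739 rows without a symbol were assigned to no gene.

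The 9 arrays held 3 groups of 3, from cells labelled AsPC-1, an established line of human pancreatic adenocarcinoma. Control cells carried the empty pBAsi-hU6 NEO plasmid, sh1 cells the same plasmid with shRNA-1 against SLP-2, and sh2 cells the plasmid with shRNA-2. In each of the 3 groups the cells went through 3 weeks of Geneticin and were grown up from 1 picked colony. A group is therefore 1 clone, and the effect of a hairpin and the properties of its clone cannot be told apart. Whether separate cultures stood behind the 3 arrays of a clone is not said in the labels, so p-values measure only the spread between these arrays, which may be technical.

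The hexosamine pathway takes fructose 6-phosphate, glutamine, acetyl-CoA and UTP to UDP-N-acetylglucosamine, the sugar donor for N-glycans, hyaluronan and other glycans. Its first step, made by the amidotransferases GFPT1 and GFPT2, limits the rate, and the title of the study names a rate-limiting enzyme of the pathway without saying which. OGT moves N-acetylglucosamine from the same donor onto serine and threonine of nuclear, cytosolic and mitochondrial proteins, and OGA takes it off again, so the pathway ties nutrient supply to protein modification. Pancreatic adenocarcinoma is known for a high glucose flow into this branch.

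The target of both hairpins was low in both lines. STOML2 had log2 signals of 13.70, 13.66 and 13.65 in the control arrays, 8.36, 8.42 and 8.18 in sh1, and 7.85, 7.99 and 7.35 in sh2. Array medians lay between 6.57 and 6.65, and row means had a lower quartile of 4.21, taken here as a rough mark of background in the absence of detection calls. Arrays correlated across rows at r = 0.994 to 0.996 within groups and 0.982 to 0.988 between groups. Of 10 epithelial markers, KRT8, KRT18 and KRT19 had control means of 16.2, 13.4 and 16.2, whereas ESRP1 (4.55), CEACAM5 (4.88) and CEACAM6 (5.61) were close to that quartile in the control. The mean signal of the 10 epithelial markers was 9.67 to 9.72 in the control arrays, 11.3 to 11.4 in sh1 and 10.3 to 10.4 in sh2, and that of 5 mesenchymal markers 10.3 to 10.4, 8.19 to 8.36 and 8.40 to 8.56. Single markers did not all follow their list. ESRP1 was at 13.89 in sh1 and 8.47 in sh2 and EPCAM at 13.88 and 9.68, from 8.94 in the control (group means), whereas KRT19 was lower in both lines (14.50 and 15.62), CDH1 went from 8.71 to 10.74 in sh1 and 8.19 in sh2, and CEACAM5 and CEACAM6 had group means of 4.78 to 5.85. Of the mesenchymal markers, CDH2 went from 11.92 to 6.81 and 5.84 and SNAI2 from 7.28 to 4.49 and 4.52, while VIM (16.45 in the control) was at 15.68 and 16.40 and ZEB1 (11.70) at 10.07 and 11.61. The part of these marker shifts in the results on hexosamine genes was not tested. The measured leukocyte, endothelial, acinar and islet markers (PTPRC, CD3E, PECAM1, CDH5, CPA1 and GCG) had group means of 3.38 to 5.56. Of the fibroblast markers, PDGFRB had group means of 4.65 to 5.04, while COL1A1 was at 9.84 in the control, 6.65 in sh1 and 6.36 in sh2.

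Both lines had more GFPT1 and less GNPDA1 and NAGK than the control, and GNPNAT1 was called higher in sh1 and not in sh2 (the lines themselves differed by -0.34, sh2 minus sh1, limma adjusted p = 0.149). Calls in what follows mean a limma adjusted p under 0.05, with adjustment over every row of the table. Among the 8 measured genes, 2 were called higher and 2 lower in sh1, against 9.76% and 9.0% of all rows called higher and lower. In sh2, 1 was called higher and 2 lower, against 8.33% and 7.98% of all rows. Called members thus made up 4 of 8 in sh1, where 18.8% of all rows were called, and 3 of 8 in sh2, where 16.3% were. The median difference of the 8 was -0.12 in sh1 and -0.22 in sh2 on the log2 scale, beside 0.02 in both lines over all rows. The median size of the difference, without its sign, was 0.46 and 0.48, beside 0.22 and 0.21 over all rows. All rows include those near background and those without a symbol. No array of a measured member read under 8.62, whereas the median of row means was 6.61. Values over all rows, here and beside the gene lists further on, were not matched for signal. They do not show whether members or lists stand out among genes of like signal, which was not tested.

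**Figure D1:**
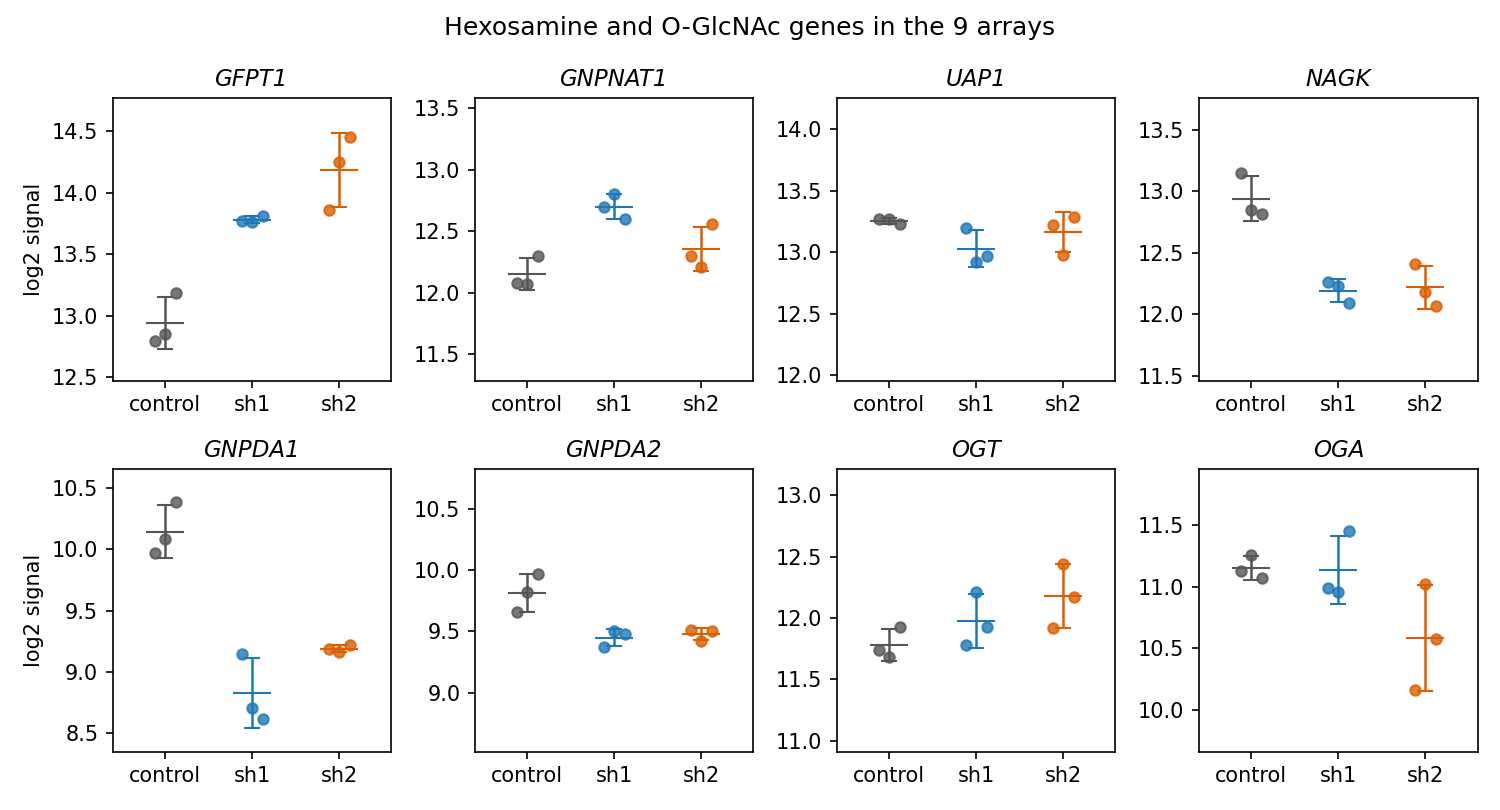
Log2 signal of the 8 measured genes (y axis, the same span of log2 units in each panel) in the control, sh1 and sh2 arrays (x axis). Points are single arrays, the wide dash is the mean of 3 arrays and the bars its SD. GFPT1 is higher and NAGK and GNPDA1 are lower in the 6 hairpin arrays than in each control array, and the 3 sh2 arrays of OGA are spread from 10.16 to 11.02.

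GFPT1 makes glucosamine 6-phosphate from fructose 6-phosphate and glutamine. Its log2 signal was 12.79, 12.85 and 13.18 in the control arrays, 13.77, 13.76 and 13.81 in sh1, and 13.86, 14.25 and 14.45 in sh2. The groups did not overlap, with the control lowest, the sh1 arrays within 0.05 of one another and the sh2 arrays highest. Against the control GFPT1 rose 1.79-fold in sh1 (95% interval 1.39 to 2.30) and 2.37-fold in sh2 (1.84 to 3.05), with limma adjusted p = 0.00395 and 0.000329. A larger change in either direction was seen in 8.0% of all rows in sh1 and in 2.82% in sh2. When each array was left out in turn, the log2 difference stayed between 0.77 and 0.96 in sh1 and between 1.12 and 1.41 in sh2, and the call was kept each time.

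The start regions of 3 genes are shown because they belong to members that moved up (GFPT1 and GNPNAT1) or down (GNPDA1). They are not all the called members: NAGK, also called lower in both lines, is not shown. CCACG and the GC box were matched in different start regions of NAGK. Each is the 250 bases before the start site as RefSeq gives it for GRCh38.p14, read 5′ to 3′ on the strand of the gene, which is the minus strand in each case: chr2:69387228-69387477 for GFPT1, chr14:52791608-52791857 for GNPNAT1 and chr5:142013028-142013277 for GNPDA1. Capitals mark 3 motifs on either strand, CCACG (the core of the unfolded protein response element), GGGCGG (the GC box) and CACGTG (the E-box, which overlaps CCACG where a C precedes it).
GFPT1: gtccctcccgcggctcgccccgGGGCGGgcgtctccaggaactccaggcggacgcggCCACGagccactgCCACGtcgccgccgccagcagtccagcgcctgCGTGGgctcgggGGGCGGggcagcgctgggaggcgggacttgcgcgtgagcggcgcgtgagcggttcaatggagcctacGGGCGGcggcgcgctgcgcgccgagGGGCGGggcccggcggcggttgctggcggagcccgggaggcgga
GNPNAT1: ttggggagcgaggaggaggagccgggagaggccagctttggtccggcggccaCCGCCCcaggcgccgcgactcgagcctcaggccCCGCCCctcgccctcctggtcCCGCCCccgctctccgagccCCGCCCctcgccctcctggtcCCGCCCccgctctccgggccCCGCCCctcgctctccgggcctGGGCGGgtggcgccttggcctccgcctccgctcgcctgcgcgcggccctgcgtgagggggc
GNPDA1: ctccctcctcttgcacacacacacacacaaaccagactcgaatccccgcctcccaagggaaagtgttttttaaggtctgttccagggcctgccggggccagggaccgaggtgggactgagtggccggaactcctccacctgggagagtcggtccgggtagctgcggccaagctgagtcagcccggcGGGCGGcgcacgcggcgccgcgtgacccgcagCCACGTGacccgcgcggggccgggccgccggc
The GFPT1 window held 3 CCACG and 4 GC boxes, the GNPNAT1 window 0 and 7, and the GNPDA1 window 1 of each, with its CCACG running into the single E-box of the members. Over the 300 bases that the promoter table gives for each start site (250 before it and 50 after), CCACG was in 10 of the 14 start sites listed for the 10 members and in 38.1% of 35116 start sites in the table. The GC box was in 12 of the 14 and in 45.0% of them, CACGTG in 1 of the 14 and in 7.26%, and TGATGNAA, a core of ATF4-type elements, in 0 of the 14 and in 3.62%. These are matches of letters and say nothing of binding. The shares were not matched for base content, and the windows printed above held 80% (GFPT1), 80.8% (GNPNAT1) and 69.6% (GNPDA1) G and C. Some of the 14 start sites belong to the same gene, as for UAP1, and GFPT2 and PGM3 are counted although they had no row. Whether the members' shares stand out was not tested.

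GNPNAT1, which acetylates glucosamine 6-phosphate in the second step, was higher in sh1. Its signal was 12.08, 12.07 and 12.30 in the control, 12.70, 12.80 and 12.60 in sh1 and 12.30, 12.21 and 12.56 in sh2. The sh1 arrays lay above all control and sh2 arrays, while the sh2 arrays overlapped the control. The rise in sh1 was 0.55 ± 0.14 (SE) on the log2 scale (1.46-fold, 95% interval on the log2 scale 0.25 to 0.85, limma adjusted p = 0.0150). That call was lost without control array 1, control array 2 or sh1 array 2 (differences of 0.52, 0.51 and 0.50, adjusted p = 0.0587, 0.0573 and 0.0517). In sh2 the difference was 0.21, with an interval of -0.09 to 0.51 (adjusted p = 0.376).

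UAP1, which joins N-acetylglucosamine 1-phosphate to UTP in the last step, passed in neither line. Its control arrays read 13.27, 13.27 and 13.23, its sh1 arrays 13.20, 12.92 and 12.97, and its sh2 arrays 13.22, 12.98 and 13.29. The sh1 arrays were below the control arrays by as little as 0.03, and the sh2 arrays overlapped them. The interval of the difference was -0.52 to 0.06 in sh1 and -0.38 to 0.20 in sh2 (limma adjusted p = 0.293 and 0.720), which leaves out a rise of the size seen for GFPT1 in either line.

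NAGK, the kinase that returns free N-acetylglucosamine to the pathway, fell to a like level in both lines. Signals were 13.15, 12.85 and 12.82 in the control, 12.26, 12.23 and 12.09 in sh1 and 12.41, 12.18 and 12.07 in sh2. Each hairpin array was below each control array, and the hairpin lines overlapped one another. NAGK was 1.68-fold lower in sh1 (log2 difference -0.75, 95% interval -1.06 to -0.44, limma adjusted p = 0.00310) and 1.65-fold lower in sh2 (-0.72, -1.03 to -0.41, adjusted p = 0.00462). The difference between the lines was 0.03, with an interval of -0.28 to 0.34.

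GNPDA1 and GNPDA2 are paralogous deaminases that turn glucosamine 6-phosphate back into fructose 6-phosphate, the reverse of the GFPT1 step. GNPDA1 read 9.97, 10.08 and 10.38 in the control, 9.15, 8.71 and 8.62 in sh1 and 9.19, 9.16 and 9.22 in sh2. The hairpin arrays were all below the control, those of sh1 lowest and spread over 0.53, those of sh2 within 0.06. GNPDA1 was 2.49-fold lower in sh1 (log2 difference -1.32 ± 0.16 (SE), limma adjusted p = 0.000159) and 1.94-fold lower in sh2 (-0.95 ± 0.16, adjusted p = 0.00192). After neighbour correction, which takes off the shift of the genes next to it on the chromosome, the sh2 difference was -0.33 and no longer called (limma adjusted p = 0.214), and that in sh1 was -0.94 (adjusted p = 0.00175). GNPDA2 read 9.66, 9.82 and 9.97 in the control, 9.37, 9.50 and 9.48 in sh1 and 9.51, 9.42 and 9.50 in sh2. Its hairpin arrays were also all below the control arrays, by smaller amounts. Its differences of -0.37 (95% interval -0.64 to -0.09) and -0.34 (-0.61 to -0.07) missed the threshold over all rows (adjusted p = 0.0630 and 0.0911). In sh1 GNPDA2 passed after quantile normalization, without rows under the lower quartile and after neighbour correction (adjusted p = 0.0484, 0.0414 and 0.0295). Groups that did not overlap were seen for 2 members higher and 4 lower in sh1 (18.2% and 16.4% of all rows) and for 1 higher and 4 lower in sh2 (17.1% and 15.4% of all rows).

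The O-GlcNAc enzymes OGT and OGA were called in neither line. OGT read 11.74, 11.68 and 11.93 in the control, 11.78, 12.21 and 11.93 in sh1 and 11.92, 12.44 and 12.17 in sh2, so that both lines overlapped the control. Its difference was 0.19 in sh1 (95% interval -0.17 to 0.55) and 0.39 in sh2 (0.03 to 0.76), with limma adjusted p = 0.504 and 0.143. OGA read 11.13, 11.26 and 11.07 in the control, 10.99, 10.96 and 11.45 in sh1 and 10.16, 11.02 and 10.57 in sh2. The sh2 arrays were all below the control arrays but had the widest spread of any measured member in any group (SD 0.43). The OGA difference was -0.02 in sh1 (-0.48 to 0.44, adjusted p = 0.966) and -0.57 in sh2 (-1.03 to -0.11, adjusted p = 0.0921). In sh2 OGA passed with an intensity trend in the prior variance (adjusted p = 0.0351), with that trend and a robust prior (0.0346) and without sh2 array 2 (0.0219, difference -0.79).

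**Figure D2:**
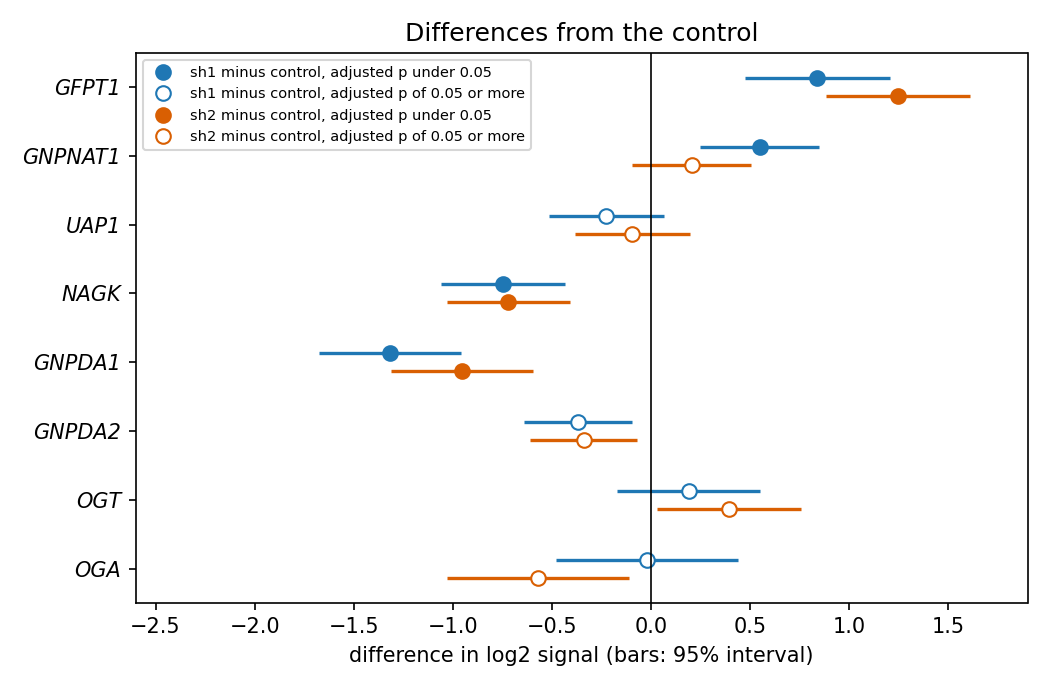
Difference in log2 signal from the control (x axis) for the 8 measured genes (y axis) in sh1 and sh2. Points are the estimates, bars their 95% intervals from the model over 9 arrays, and filled points have an adjusted p under 0.05. Filled points lie right of 0 for GFPT1 in both lines and GNPNAT1 in sh1, and left of 0 for NAGK and GNPDA1 in both lines.

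The comparison of sh2 with sh1 asks whether the clones differed from one another in these genes, and it does not use the control arrays as a reference. At an adjusted p under 0.05 limma called 0 of the 8 members, and 4 had an unadjusted p under 0.05, while 11.3% of all rows were called. Those 4 were GFPT1 (0.41 higher in sh2, 95% interval 0.04 to 0.77), GNPDA1 (0.36, 0.01 to 0.72), GNPNAT1 (-0.34, -0.64 to -0.04) and OGA (-0.55, -1.01 to -0.09), with limma adjusted p = 0.160, 0.205, 0.149 and 0.127. GFPT1 passed with an intensity trend in the prior (adjusted p = 0.0461), with a trend and a robust prior (0.0456), and without sh2 array 1 (0.0451, difference 0.57). OGA passed without sh2 array 2 (-0.77, adjusted p = 0.0328). UAP1, NAGK, GNPDA2 and OGT differed between the lines by 0.13, 0.03, 0.03 and 0.20.

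Opposing enzymes were also set against each other within each array, which removes any scaling shared by the array and gives only unequal change, with no test. With the control mean set to 0, GFPT1 minus GNPDA1 was 0.02, -0.03 and 0.00 in the control arrays, although both signals varied by 0.39 and 0.41 there. It was 1.82, 2.25 and 2.39 in sh1 and 1.87, 2.29 and 2.43 in sh2. The lines had means of 2.16 ± 0.30 (SD, n = 3) and 2.20 ± 0.29, so that GFPT1 gained on GNPDA1 by nearly the same amount in both. GNPDA2, which runs the same reverse step, was not set against GFPT1. It was lower by less (-0.37 and -0.34, against -1.32 and -0.95 for GNPDA1) and not called. The within-array values are also without neighbour correction, after which GNPDA1 differed by -0.94 in sh1 and -0.33 in sh2. OGT minus OGA was -0.02, -0.21 and 0.23 in the control, 0.16, 0.62 and -0.15 in sh1 and 1.13, 0.79 and 0.97 in sh2. The sh2 arrays lay above the others, and sh1 overlapped the control.

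**Figure D3:**
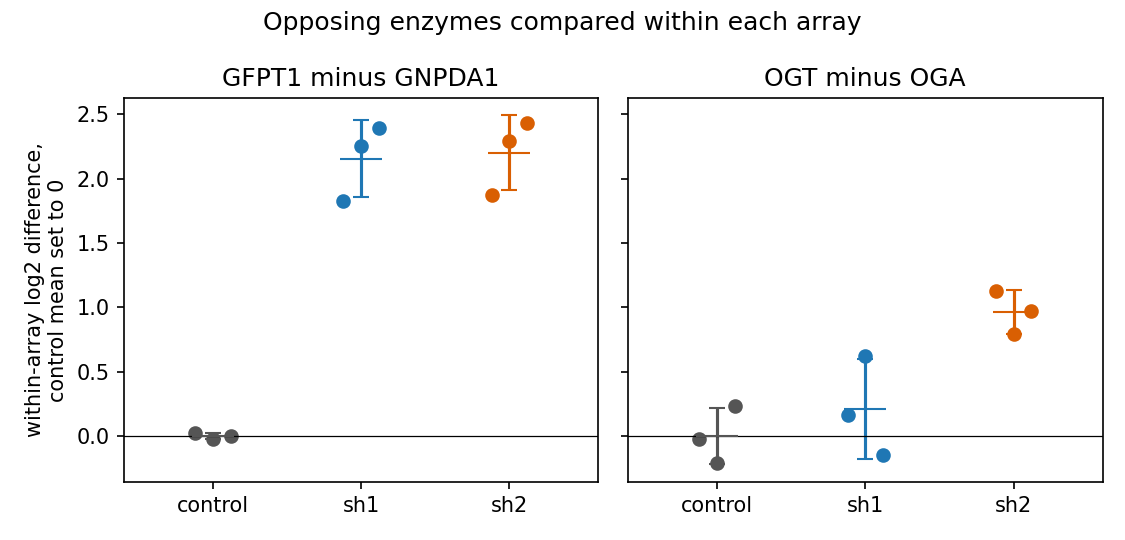
Log2 signal of GFPT1 minus GNPDA1 (left) and of OGT minus OGA (right) within each array (y axis, control mean set to 0) by group (x axis). Points are single arrays, the dash the mean of 3 and the bars its SD. The 6 hairpin arrays lie between 1.82 and 2.43 on the left, and on the right the 3 sh2 arrays lie between 0.79 and 1.13.

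Of the 8 measured members, GNPDA1 alone had chromosomal neighbours with a median difference beyond 0.13 in size. The 40 nearest genes with a row above the median signal (20 on each side in RefSeq order) gave the local level. Around GNPDA1 on chromosome 5, 35 of 40 neighbours were lower in sh1 (median -0.41) and 36 of 40 in sh2 (median -0.62), and 14 and 26 of them were called lower. With the neighbours' median taken off in each array, GNPDA1 was 0.61 higher in sh2 than in sh1 (limma adjusted p = 0.0330). The target STOML2 on chromosome 9 also had 36 of 40 neighbours lower in both lines (medians -0.51 and -0.45). GFPT1 and NAGK lie near each other on chromosome 2, with 14 of the used genes between them, and moved in opposite directions. The medians of their neighbours were 0.10 and 0.10 in sh1 and 0.07 and 0.05 in sh2, and the corrected differences were 0.74 and 1.18 for GFPT1 and -0.85 and -0.77 for NAGK. The neighbours of GNPNAT1 on chromosome 14 had medians of 0.13 and 0.08, and its sh1 difference was 0.41 after correction (adjusted p = 0.0425). For UAP1, GNPDA2, OGT and OGA the medians of the neighbours lay between -0.11 and 0.09 in both lines.

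**Figure D4:**
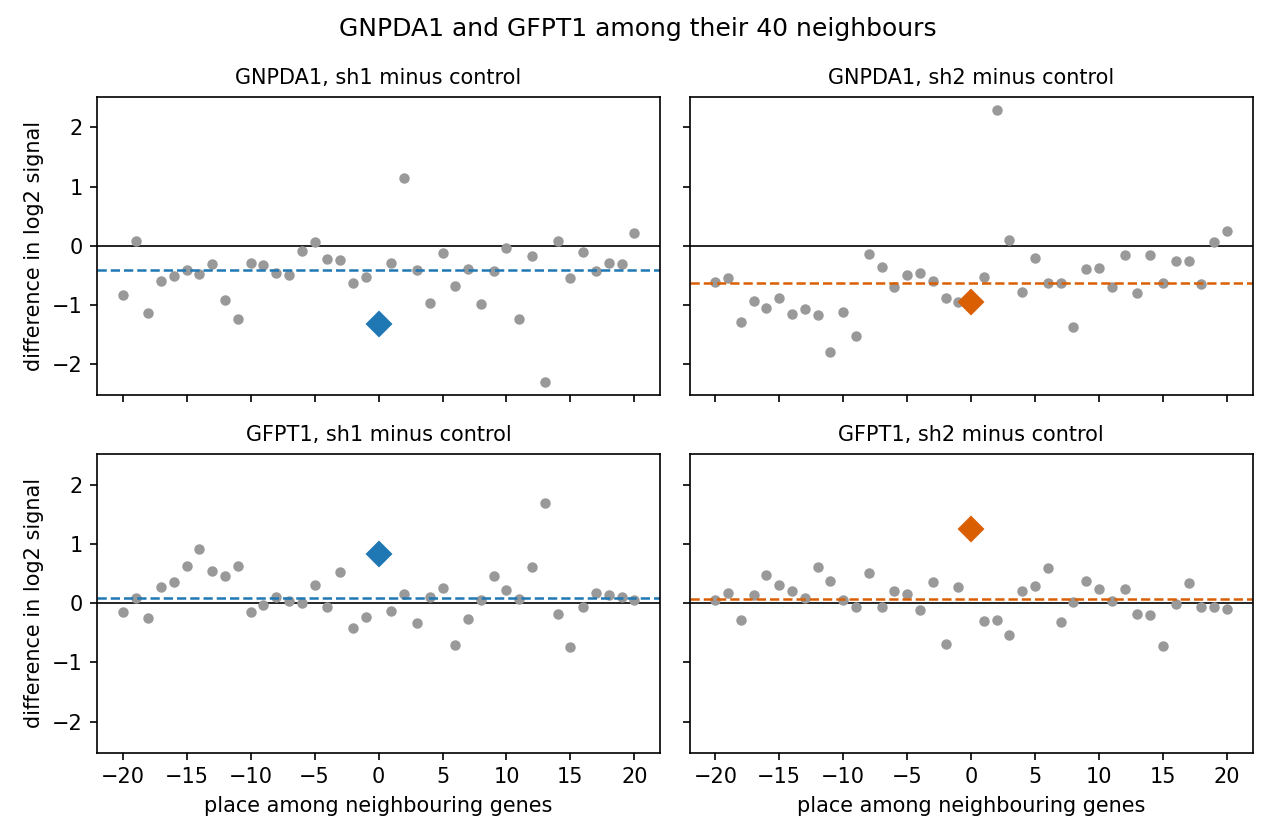
Difference in log2 signal from the control (y axis) for GNPDA1 (top) and GFPT1 (bottom) and their 40 neighbours by place along the chromosome (x axis, 0 is the gene itself), for sh1 (left) and sh2 (right). Grey points are neighbours, the dashed line their median and the diamond the gene. The dashed lines lie at -0.41 and -0.62 around GNPDA1 and at 0.10 and 0.07 around GFPT1.

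The rows most like GFPT1 over the 9 arrays, by the root mean square difference between profiles centred on their own means, were SLC4A7 (0.12), CFAP300 (0.12) and AS3MT (0.13) of 17708 rows with a symbol. SLC4A7, a bicarbonate transporter, had differences of 1.09 in sh1 and 1.42 in sh2. Those most like GNPDA1 were ZFHX3 (0.12), SRI (0.13) and MRPL36 (0.15). SRI, the calcium-binding protein sorcin, had differences of -1.16 and -0.93.

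Genes listed around the supply of precursors moved in both directions. The list had 18 measured genes for glucose, glutamine, acetyl-CoA and UTP. It also held genes that draw on precursors, such as CTPS1 and the phosphofructokinases PFKM and PFKP, so its counts do not measure supply. Of the 18, 4 were called higher and 3 lower in sh1, and 6 higher and 2 lower in sh2 (medians 0.09 and 0.09). That is 38.9% and 44.4% of the list, beside 18.8% and 16.3% of all rows. SLC2A3, a glucose transporter, rose from 4.87 ± 0.20 (SD, n = 3) in the control to 6.33 ± 0.18 in sh1 and 6.47 ± 0.43 in sh2 (limma adjusted p = 0.000396 and 0.000252). Its control level was close to the lower quartile of row means (4.21). The glucose transporter SLC2A1, at 10.80 in the control, was called in neither line (-0.61 and -0.06, limma adjusted p = 0.0545 and 0.887). GLUL, which makes glutamine, the nitrogen donor of the GFPT1 step, fell from 11.24 ± 0.15 to 10.06 ± 0.05 in sh1 and 9.53 ± 0.06 in sh2 (limma adjusted p = 4.11e-05 and 2.53e-06). SLC38A1, a glutamine importer, rose by 0.63 and 0.76 (adjusted p = 0.00765 and 0.00290), and after neighbour correction the values were 0.38 and 0.45 (adjusted p = 0.0743 and 0.0450). CTPS1, which uses glutamine and UTP to make CTP, rose by 0.42 and 0.44 (adjusted p = 0.0302 and 0.0272). The CTPS1 calls were each lost when any of 4 arrays was left out, among them control arrays 1 and 2 in both lines, and after neighbour correction (0.30 and 0.35, adjusted p = 0.105 and 0.0692). The other arrays were sh1 arrays 1 and 3 and sh2 arrays 1 and 2.

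Among 22 genes that carry or use UDP-N-acetylglucosamine, 5 were called higher and 4 lower in sh1, and 4 higher and 2 lower in sh2 (medians -0.02 and 0.16), which is 40.9% and 27.3% of the list. HAS2, a hyaluronan synthase, rose from 7.80 ± 0.10 (SD, n = 3) to 8.57 ± 0.18 in sh1 and 10.04 ± 0.07 in sh2 (limma adjusted p = 0.00163 and 5.24e-07), and the 3 groups did not overlap. SLC35A3, the Golgi carrier of UDP-N-acetylglucosamine, rose by 0.58 in sh1 and 0.91 in sh2 (limma adjusted p = 0.0320 and 0.00327). Its sh1 call was lost without control array 1 or 2 or sh1 array 1 or 2 and after neighbour correction (0.41 to 0.62, adjusted p = 0.0601 to 0.126). MGAT4B, an N-glycan branching enzyme, fell by 1.10 and 1.17 (adjusted p = 0.000362 and 0.000279), and by 0.69 in sh2 after neighbour correction (adjusted p = 0.00768). EXT1, a heparan sulfate polymerase, dropped by 1.32 and 0.41 (adjusted p = 1.78e-05 and 0.0433). The sh2 call of EXT1 was lost with sh1 left out of the fit and without any 1 of the control or sh2 arrays or sh1 array 1 (adjusted p = 0.0535 to 0.118).

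In the salvage list, which also holds the lysosomal hexosaminidases, 1 of 10 measured genes was called higher and 2 lower in sh1, and limma called 0 in sh2, where 2 higher and 0 lower had an unadjusted p under 0.05 (medians 0.09 and 0.05). The share called in sh1 was 30%, beside 18.8% of all rows. GNE, which starts sialic acid synthesis from UDP-N-acetylglucosamine, differed by -0.75 and 0.36 (limma adjusted p = 0.00103 and 0.0638), and after neighbour correction by -0.42 and 0.62 (adjusted p = 0.0293 and 0.00387). In sh2 it also passed without rows under the lower quartile (adjusted p = 0.0412), with an intensity trend in the prior (0.0226) and with that trend and a robust prior (0.0238). CTBS, a lysosomal chitobiase, differed by -0.66 and 0.11 (adjusted p = 0.00501 and 0.671). HEXA, a subunit of the lysosomal hexosaminidase, differed by 0.58 and 0.22 (adjusted p = 0.0129 and 0.350). Its sh1 value was -0.14 after neighbour correction (adjusted p = 0.523), and its call was lost without control array 2 or sh1 array 3 (adjusted p = 0.0511 and 0.0532). Among 9 measured partners and regulators of O-GlcNAc cycling, 3 were called higher and 0 lower in sh1, and 2 higher and 0 lower in sh2 (medians 0.01 and 0.05), which is 33.3% and 22.2% of the list. At an unadjusted p under 0.05 from limma, 0 were lower in either line. SIN3A, a corepressor that binds OGT, rose by 1.37 and 0.64 (adjusted p = 3.13e-05 and 0.00789), and the sh1 value was 0.66 after neighbour correction (adjusted p = 0.00450). TET1, a methylcytosine dioxygenase whose family binds OGT, rose by 0.82 and 0.97 (adjusted p = 0.0128 and 0.00554), and its sh1 call was lost without control array 1 or 2 (adjusted p = 0.0582 and 0.0537). TET2 (-0.34 in sh1 and 0.05 in sh2) and TET3 (-0.34 and -0.18) of the same family were called in neither line. PPP1R12A, a myosin phosphatase subunit, differed by 0.56 and 0.42 (adjusted p = 0.0369 and 0.128), and its sh1 call was lost without control array 1 or 3 or sh1 array 1 or 3, with sh2 left out of the fit, and after neighbour correction (adjusted p = 0.0613 to 0.331).

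GFPT1 is a known target of XBP1, the transcription factor of the unfolded protein response, and 17 measured genes of that response were read beside it. Of these, 1 was called higher and 1 lower in sh1, and 4 higher and 1 lower in sh2 (medians 0.07 and 0.21). That is 11.8% and 29.4% of the list, beside 18.8% and 16.3% of all rows. PDIA4, an ER disulfide isomerase, rose by 0.48 in sh1 and 0.95 in sh2 (limma adjusted p = 0.0110 and 0.000136), and the sh1 value was 0.10 after neighbour correction (adjusted p = 0.617). HYOU1, an ER chaperone, differed by 0.13 and 0.55 (adjusted p = 0.534 and 0.00742). SEC24D, a coat protein of ER export, differed by -0.39 and 0.80 (adjusted p = 0.0716 and 0.00205), and in sh1 it passed in 5 of 17 alternative settings (adjusted p = 0.0384 to 0.0499). SEL1L, a part of ER-associated degradation, differed by -0.29 and -1.57 (adjusted p = 0.181 and 1.15e-05). XBP1 itself, also in the list, was called in neither line (-0.18 and 0.21, limma adjusted p = 0.534 and 0.474). HSPA5 differed by 0.20 and 0.49 (adjusted p = 0.278 and 0.0127), and DNAJB9, DNAJB11 and EDEM1 were called in neither line.

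**Figure D5:**
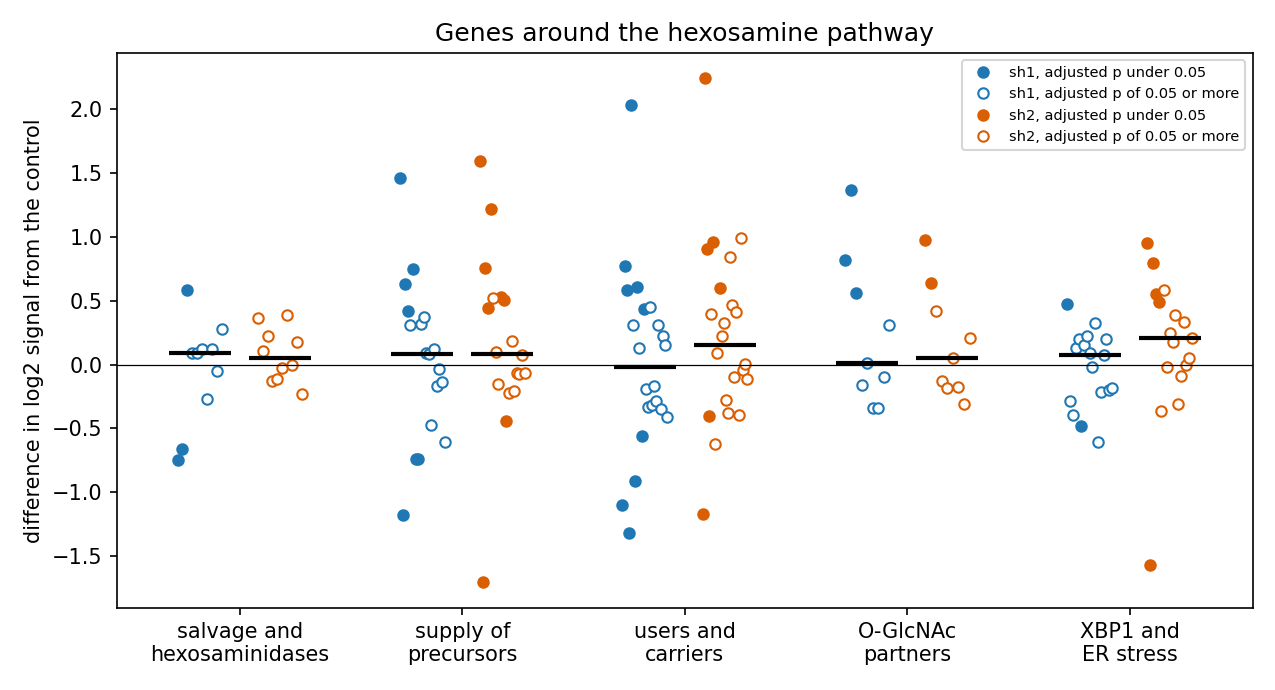
Difference in log2 signal from the control (y axis) for each measured gene of 5 lists around the hexosamine pathway (x axis), in sh1 and sh2. Filled points have an adjusted p under 0.05, open points do not, and the black bar is the median of the list. Medians lie between -0.02 and 0.21, with filled points on both sides of 0 for precursor supply and for users and carriers in both lines.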

How the data were processed

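Total RNA (100 ng) was labelled with biotin by the WT Plus kit for 1-colour whole-transcript arrays, per the labels' protocols. The authors deposited 1 table of 9 arrays, read as log2 signals from its range (2.03 to 18.57) and near-identical array medians. The submitters' processing notes name Transcriptome Analysis Console, while its version and settings, the normalization method and the genome build are not named in the sources used here. Values were used as deposited. Rows were named through the platform annotation, and RefSeq (GRCh38.p14) gave gene order and promoters. The 10 members, the wider lists and the alternatives were chosen with earlier results of these data known.

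One linear model over the 9 arrays was fitted with limma 3.58.1 in R 4.3.3 (lmFit and eBayes), with Benjamini-Hochberg adjustment over 21448 rows. Neighbour correction subtracted, in each array, the median deviation from the control mean of 40 neighbouring genes, 20 on each side. The number of arrays limits the precision. Named genes were the measured members, STOML2, up to 4 called genes of each list (called in both lines first, by the smaller change) and the 3 rows most like GFPT1 and GNPDA1. Some other list genes are given beside these for comparison, without results for the alternatives. The fit was also run on simulated data with independent noise in each row. That run held no shifts shared by neighbouring genes and no clone effects, so it cannot vouch for the calls in this design.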

Additional observations from a re-analysis of the deposited data

Results flagged for a closer look

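These genes, taken from the members, STOML2 and the up to 4 called genes of each list, differed between sh2 and sh1. The rule was an adjusted p under 0.05 in the direct comparison (limma, sh2 minus sh1, log2 scale), and their arrays did not overlap between the 2 lines. Other genes of the wider lists were left out, among them MGAT4A (-1.64, adjusted p = 0.000233) and HK2 (0.90, adjusted p = 0.00307). STOML2 was lower in sh2, by a difference of -0.59 (adjusted p = 0.0394), a call lost in 9 of 17 alternative settings, of which 8 left out 1 array (-0.66 to -0.40, adjusted p = 0.0548 to 0.113). Higher in sh2 were GNE (1.11, adjusted p = 8.73e-05), CTBS (0.77, adjusted p = 0.00313), HAS2 (1.47, adjusted p = 2.15e-05), EXT1 (0.92, adjusted p = 0.000462) and SEC24D (1.19, adjusted p = 0.000146), which kept their calls in the 17 alternatives run. Also higher in sh2 were PDIA4 (0.48, adjusted p = 0.0170), whose call was lost without sh1 array 1, sh1 array 3 or sh2 array 1 (adjusted p = 0.0505 to 0.0570), and HYOU1 (0.42, adjusted p = 0.0383), whose call was lost in 11 of 17 settings (adjusted p = 0.0501 to 0.123). Lower in sh2 were GLUL (-0.53, adjusted p = 0.0153, 0.0550 without sh1 array 1), SIN3A (-0.73, adjusted p = 0.00465, and -0.15 with adjusted p = 0.560 after neighbour correction) and SEL1L (-1.29, adjusted p = 6.74e-05).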

How the results depend on the processing

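The calls of GFPT1 and NAGK in both lines and of GNPDA1 in sh1 held in all 17 alternatives run (2 scalings, a filter on low rows, 2 variance priors, the 2 groups alone, a block by array number, neighbour correction and each array left out), and that of GNPDA1 in sh2 in 16, all but neighbour correction. At an adjusted p under 0.01, 2425 rows were called in sh1 (1193 higher and 1232 lower), 1921 in sh2 (900 and 1021) and 1331 between the lines (719 and 612), and 1 member was called higher in sh1. With neighbour correction 1 member was called lower in sh2 and 1 member higher in sh2 than in sh1. With an intensity trend in the prior, alone or with a robust prior, 1 member was called between the lines, higher in sh2. With each array left out, 1 to 2 members were called higher in sh1, and 0 to 1 were called between the lines (0 to 1 higher and 0 to 1 lower). Signs turned only for differences with an adjusted p over 0.5 in the alternative. OGA in sh1 was 0.036 with neighbour correction and -0.18 to 0.067 with each array left out, where it was above 0 without control array 2, sh1 array 1 or sh1 array 2. With each array left out, NAGK between the lines was -0.068 to 0.10, below 0 without sh1 array 3 or sh2 array 1, and GNPDA2 was -0.013 to 0.055, below 0 without sh1 array 1, and HEXA in sh1 was -0.14 with neighbour correction. With the replicate block, 3996 rows were called in sh1, 3432 in sh2 and 2364 between the lines, with 4, 3 and 0 members, and of the named genes HYOU1 between the lines alone lost its call (adjusted p = 0.0608). Array numbers were not taken as pairs, since deviations of same-numbered arrays correlated at -0.0358 to 0.180 and 2 of 9 pairs exceeded 0.1. The highest values all came from arrays numbered 1: 0.180 for control with sh2, 0.122 for sh1 with sh2 and 0.0856 for control with sh1. The causes were not tested.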
